A study of Mus musculus with 8 samples.

Results

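The genes described here are 10 components of insulin and insulin-like growth factor (IGF) signalling, measured by messenger RNA sequencing in mouse ventral midbrain. They were taken by name: the receptor genes Igf1r, Insr, Igf2r and Ghr, the adaptor genes Irs1 and Irs2, the kinase gene Mtor, the ligand genes Igf1 and Igf2, and the binding protein gene Igfbp2. All 10 were found among 15359 genes in the table, and all 10 were among the 15074 that passed the filter on low counts. One group held 4 samples from Ercc1 delta/+ mice, which carry a mutant allele of a DNA repair gene beside a normal one, and the other held 4 samples from wild type mice. Both groups were on an FVB:C57BL/6J background, and the labels name a regular diet and no treatment; age and sex are not stated in the sources used here. The labels do not describe what the delta allele leaves of the transcript, nor whether the samples are individual animals. The p-values below therefore speak to the spread among these libraries, part of which may be technical.

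Insulin and IGF1 bind the related tyrosine kinase receptors INSR and IGF1R, which phosphorylate the adaptors IRS1 and IRS2 and so switch on PI3K, AKT and the growth kinase mTOR. Growth hormone acts through its receptor GHR and drives IGF1 production in liver, and long-lived and DNA repair-deficient mice are both known for low activity of this axis in the body. In adult brain the receptors and adaptors are made by neurons and glia, whereas Igf2 is made mainly by meninges, choroid plexus and vessels, and Igfbp2 by choroid plexus, meninges and astrocytes. The ventral midbrain lies against meninges and near the plexus, so a dissected piece can hold different amounts of both.

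After 1 row was kept per gene, mutant libraries held between 18303913 and 27197581 counts and wild type libraries between 20558308 and 31261889. Mutant replicates 1, 2 and 4 and wild type replicate 2 were the 4 shallowest, so depth and genotype overlap; with a single library of one genotype in each depth group, no comparison within a depth group could be made. Ercc1 itself stood between 10.2 and 12.9 CPM (the gene's counts scaled to a common library total, with library sizes adjusted by the TMM method) in mutants and between 13.8 and 15.3 CPM in wild type, so each library lay on the side its label gives. Its log2 fold change was -0.34 (SE 0.10) and missed the threshold of the edgeR quasi-likelihood test (adjusted p = 0.113). All 10 dopaminergic neuron markers on a fixed list, among them Th and Slc6a3, had counts in every library. Of these markers 8 had a negative log2 fold change, 0 of them at an unadjusted p under 0.05. Their summed level ran from 222 to 461 CPM in mutants and from 326 to 496 CPM in wild type.

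By the edgeR quasi-likelihood test over all genes, none of the 10 reached an adjusted p under 0.05 (0 of 10; 7 of 15074 genes, or 0.0464%, passed). The log2 fold change of mutant over wild type was positive for 9 of the 10, with a median of 0.21, against a median of 0.00 over all genes tested. At an unadjusted p under 0.05, 7 of the 10 were higher in Ercc1 delta/+, where 9.08% of all genes were, and 0 were lower. For Igf1r, Irs2, Mtor and Igfbp2 every mutant library lay above every wild type library, which held for 5.17% of all genes. DESeq2 called these same 4 genes higher (3.66% of the genes it adjusted), the edgeR exact test called 3 of them (1.6% of genes) and limma-voom called 0 of the 10 (0.119% of genes).

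**Figure D1:**
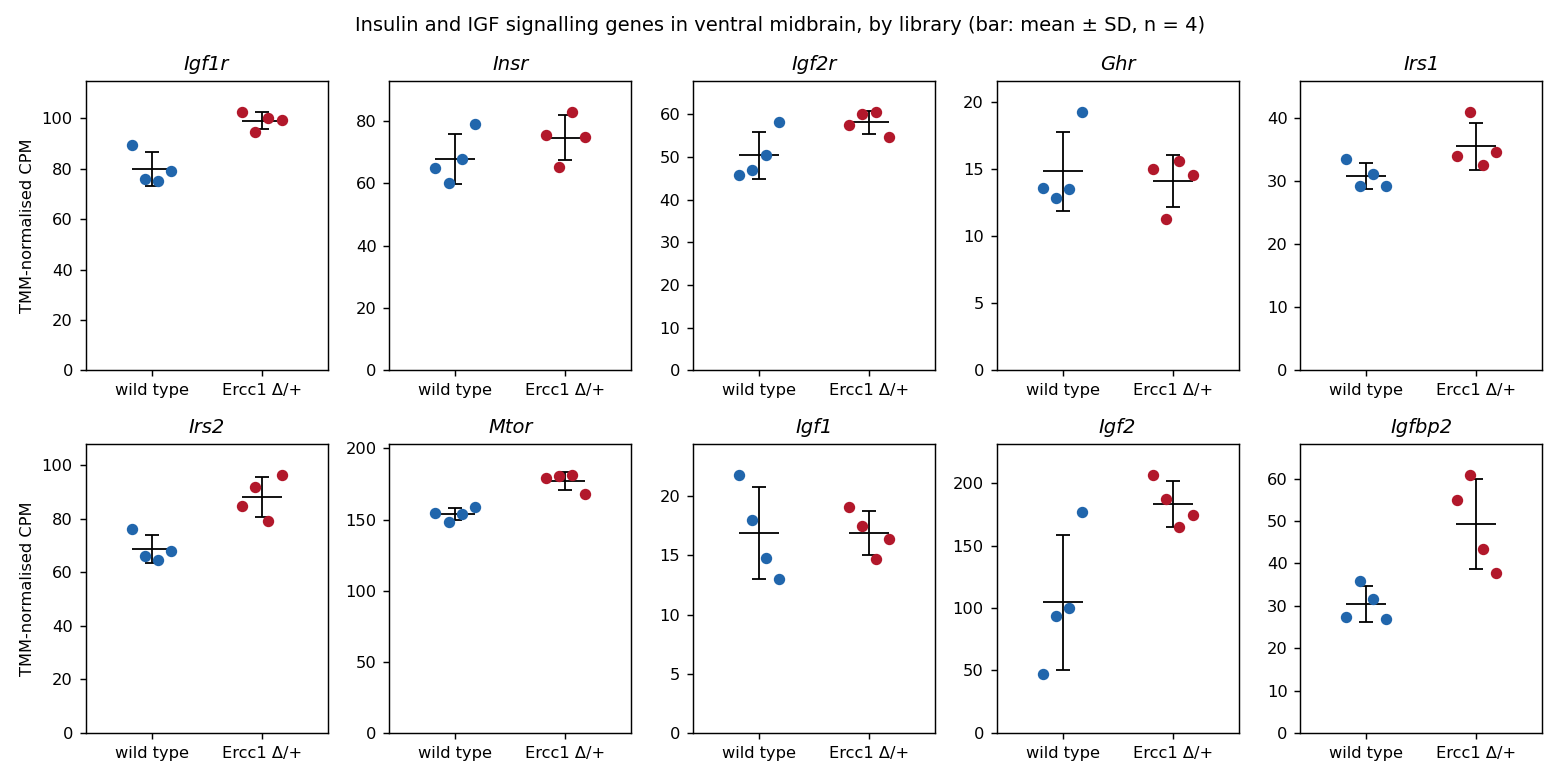
Normalised expression (CPM, y axis from 0) of the 10 genes in 4 wild type (blue) and 4 Ercc1 delta/+ (red) libraries; points are libraries and bars the mean ± SD. The groups are apart for Igf1r, Irs2, Mtor and Igfbp2, and the wild type points of Igf2 spread from 47.0 to 177 CPM.

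Among the receptors, Igf1r, which binds IGF1 and IGF2, held 103, 94.7, 100.03 and 99.4 CPM in mutant replicates 1 to 4. The wild type replicates held 89.6, 75.9, 75.0 and 79.0 CPM. The lowest mutant library thus lay above the highest wild type library, by 94.7 against 89.6 CPM. The log2 fold change was 0.31 (SE 0.07), or 1.24-fold, with a quasi-likelihood adjusted p of 0.0789 that missed the threshold.

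Insr, the insulin receptor gene, held 75.6, 65.3, 83.0 and 75.0 CPM in mutants and 64.9, 60.1, 67.9 and 79.0 CPM in wild type. The groups overlapped, with wild type replicate 4 above mutant replicates 1, 2 and 4. The log2 fold change was 0.14 (SE 0.10, edgeR adjusted p = 0.497).

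Igf2r encodes the mannose 6-phosphate receptor, which takes up IGF2 for breakdown and carries lysosomal enzymes. It held 57.5, 60.0, 60.6 and 54.6 CPM in mutants and 45.8, 47.0, 50.5 and 58.2 CPM in wild type. Wild type replicate 4 again lay inside the mutant range, and the log2 fold change was 0.21 (SE 0.08, edgeR adjusted p = 0.232).

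Ghr, the growth hormone receptor gene, held 15.0, 11.3, 15.6 and 14.6 CPM in mutants and 13.6, 12.9, 13.5 and 19.2 CPM in wild type. Its groups overlapped over most of their range, and it was the one gene of the 10 with a negative log2 fold change (-0.07, SE 0.15, edgeR adjusted p = 0.846). That sign turned in 4 of 22 alternative settings, so it has no direction in these data.

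Of the adaptors that dock on both receptors, Irs2 held 84.8, 91.9, 79.2 and 96.4 CPM in mutants against 76.2, 66.2, 64.4 and 67.8 CPM in wild type. The groups did not meet, although mutant replicate 3 and wild type replicate 1 were 79.2 and 76.2 CPM. Its log2 fold change of 0.36 (SE 0.08), or 1.28-fold, was the largest among receptors and adaptors, and its edgeR adjusted p of 0.0816 missed the threshold.

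Irs1 held 34.0, 41.0, 32.6 and 34.6 CPM in mutants and 33.6, 29.3, 31.2 and 29.3 CPM in wild type. Wild type replicate 1 lay above mutant replicate 3, so the groups overlapped. The log2 fold change was 0.20 (SE 0.09, edgeR adjusted p = 0.256).

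Mtor, the kinase shared by the growth-controlling complexes mTORC1 and mTORC2, had the smallest spread relative to its mean in wild type (154 ± 4.17 CPM, SD, n = 4). It held 179, 181, 182 and 168 CPM in mutants and 155, 148, 154 and 158 CPM in wild type. The groups were apart, and the log2 fold change of 0.21 (SE 0.06), or 1.15-fold, had an edgeR adjusted p of 0.105.

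Per kilobase of transcript, the wild type level was highest for Igfbp2 (23.2 CPM per kilobase), Igf2 (22.1) and Mtor (18), and then for Irs2 (10.9). Insr (7.27 CPM per kilobase), Igf1r (7.0) and Igf2r (5.67) followed, and Ghr (3.55) and Irs1 (3.37) were lowest. Over the wild type libraries Igf2 overlapped with Igfbp2, Mtor and Irs2, Insr overlapped with Igf1r and Igf2r, and Ghr with Irs1, so these neighbours do not differ beyond their spread. Igf1 has no fixed place in this order: its rows match annotated transcripts of 651 to 7052 bases, which put it anywhere from 2.40 to 25.9 CPM per kilobase.

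The 4 genes whose groups did not meet are shown with the 250 bases before their annotated start (RefSeq, GRCm38.p6), because every mutant library lay above every wild type library for them. Capitals mark the GC box GGGCGG or its reverse CCGCCC, the one motif of 4 searched that is in these windows. The windows are chr7:67952007-67952256 (plus strand) for Igf1r, chr8:11008930-11009179 (minus strand) for Irs2, chr4:148448332-148448581 (plus strand) for Mtor and chr1:72824230-72824479 (plus strand) for Igfbp2, each read 5′ to 3′ along its gene.
Igf1r: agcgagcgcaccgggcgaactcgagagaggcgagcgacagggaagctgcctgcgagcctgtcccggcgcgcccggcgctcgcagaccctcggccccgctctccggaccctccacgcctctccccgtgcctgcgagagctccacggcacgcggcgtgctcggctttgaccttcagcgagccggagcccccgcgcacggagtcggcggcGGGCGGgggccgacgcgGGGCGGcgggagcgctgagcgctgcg
Irs2: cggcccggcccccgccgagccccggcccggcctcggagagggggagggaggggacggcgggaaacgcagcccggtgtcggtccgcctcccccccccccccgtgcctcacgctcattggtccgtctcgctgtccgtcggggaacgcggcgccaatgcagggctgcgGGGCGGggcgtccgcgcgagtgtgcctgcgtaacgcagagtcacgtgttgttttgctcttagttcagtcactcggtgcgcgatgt
Mtor: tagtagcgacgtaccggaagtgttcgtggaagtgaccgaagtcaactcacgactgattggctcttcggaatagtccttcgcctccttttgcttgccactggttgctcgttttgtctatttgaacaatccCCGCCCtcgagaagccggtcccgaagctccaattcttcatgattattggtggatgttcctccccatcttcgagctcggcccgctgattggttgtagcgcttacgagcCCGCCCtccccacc
Igfbp2: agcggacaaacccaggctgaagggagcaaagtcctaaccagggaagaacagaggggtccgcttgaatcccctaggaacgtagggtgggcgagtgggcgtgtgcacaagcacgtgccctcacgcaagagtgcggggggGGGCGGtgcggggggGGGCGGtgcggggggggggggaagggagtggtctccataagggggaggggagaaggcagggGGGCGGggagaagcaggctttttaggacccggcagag

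Such windows were found for 9 of the 10 genes, with 14 windows in all. A GC box, the letters bound by SP1-family factors, was in at least 1 window of 8 genes and in 9 of the 14 windows, against 32.7% of 32851 RefSeq windows of this length. The window of Igf1 held none. CG dinucleotides numbered 42 before Igf1r, 34 before Irs2, 19 before Mtor and 14 before Igfbp2, with a median of 6 over all windows. The FOXO core GTAAACA (reverse TGTTTAC) was in 0 windows of the 9 genes and in 3.17% of all windows. The full palindromic glucocorticoid response element was in 0 windows and in 0.00913% of all. The TATA box TATAAA (reverse TTTATA) was in a window of 1 gene, Ghr, and in 12.4% of all windows. Both strands were searched, none of these motifs contains another, and no match in these 250 bases says nothing of factors bound elsewhere.

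The ligands and the binding protein behaved less alike. Igf1, the main growth hormone-dependent ligand, held 19.1, 17.5, 14.7 and 16.4 CPM in mutants and 21.8, 18, 14.7 and 13.0 CPM in wild type. The means were 16.9 ± 1.85 and 16.9 ± 3.87 CPM (SD, n = 4 each), and the log2 fold change was 0.00 (SE 0.16, edgeR adjusted p = 0.999). Its 4 transcript rows totalled between 3106 and 3217 counts, so they largely count the same reads and do not separate isoforms.

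Igf2, a growth factor ligand expressed from the paternal allele in most tissues, held 207, 187, 165 and 174 CPM in mutants. The wild type replicates held 47.0, 93.6, 100.1 and 177 CPM. The 4 mutants lay within 1.25-fold of each other, whereas the wild type libraries spanned 3.77-fold, and wild type replicate 4 reached the mutant range. The log2 fold change was 0.81 (SE 0.32), or 1.75-fold, with an edgeR adjusted p of 0.218. This fold change and its SE were the largest of the 10. Leaving out wild type replicate 1 gave 0.57 (edgeR adjusted p = 0.281), and leaving out wild type replicate 4 gave 1.19 (adjusted p = 0.0853). The 3 rows of Igf2 totalled between 27019 and 27626 counts and do not tell its promoters apart.

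Igfbp2 encodes a secreted protein that binds IGF1 and IGF2. It held 54.9, 61.0, 43.3 and 37.7 CPM in mutants and 27.3, 35.9, 31.5 and 26.8 CPM in wild type, or 49.2 ± 10.6 against 30.4 ± 4.22 CPM (SD, n = 4 each). The groups did not overlap, with mutant replicate 4 the lowest mutant at 37.7 and wild type replicate 2 the highest wild type at 35.9 CPM. The log2 fold change was 0.70 (SE 0.16), or 1.62-fold, and its edgeR adjusted p of 0.0816 missed the threshold.

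In the authors' deposited table, Igf2 and Igfbp2 were past an adjusted p of 0.05, where 1.02% of its 19931 rows were past it in the higher direction. The authors' deposited table gives Igfbp2 a log2 fold change of 0.69 (adjusted p = 0.00197) and Igf2 0.72 (adjusted p = 0.0261). In the authors' deposited table Igf1r stood at 0.31 (adjusted p = 0.194), Irs2 at 0.34 (0.109) and Mtor at 0.19 (0.514). The other 5 genes had an adjusted p of at least 0.525 in the authors' deposited table.

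Most tested markers of neighbouring tissue also had positive log2 fold changes. In bulk tissue fewer cells of a type and less RNA per cell cannot be told apart. Of 17 meningeal fibroblast markers in the table, 17 lay above 0 on the log2 scale (median 0.42), 0 of them past the adjusted threshold. At an unadjusted p under 0.05, 3 of these markers were higher, where 9.08% of all genes were. Their summed level was 365, 338, 285 and 361 CPM in mutants 1 to 4 and 115, 223, 239 and 393 CPM in wild type, and none was at 0 in any library. Wild type replicate 1 was thus lowest and wild type replicate 4 highest, as for Igf2 among the wild type libraries. Col1a1, a collagen gene of fibroblasts, held between 21.6 and 26.4 CPM in mutants and between 10.7 and 23.6 CPM in wild type, and the meningeal transporter gene Slc6a13 between 12.9 and 24.2 and between 4.55 and 27.3 CPM. Dcn, a proteoglycan gene of fibroblasts, held between 23.9 and 35.0 CPM in mutants and between 13.0 and 34.0 CPM in wild type.

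Over the 8 libraries, log2 CPM of Igf2 followed the mean of the meningeal markers with a Pearson r of 0.971 (exact permutation p = 0.000818, adjusted p = 0.0164 over 20 relations of 10 genes with 2 marker lists). Spearman's rho was 0.881 (exact permutation p = 0.00724, adjusted p = 0.145). Without wild type replicates 1 and 2, the libraries farthest from the median marker level, r was 0.859 over 6 libraries. The permutations mixed libraries of both genotypes. These p-values, and those for the plexus markers below, therefore also take in any difference between genotypes. Each genotype and each depth group holds 4 libraries, too few for a coefficient of its own. Of the other 19 relations none passed an adjusted p of 0.05, the nearest being Igf2r with the meningeal markers (r = 0.815, exact permutation p = 0.0063, adjusted p = 0.0630; 0.511 without the same 2 libraries).

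With the mean of the meningeal markers as a covariate, the log2 fold change of Igf2 was 0.35 (SE 0.08, edgeR adjusted p = 0.239), against 0.81 without it. Under this covariate Igf2r stood at 0.12, against 0.21 without it, and Insr at 0.07, against 0.14. Ghr stood at -0.20, Irs1 at 0.26, Igf1 at 0.24, Igfbp2 at 0.68, Igf1r at 0.38, Irs2 at 0.41 and Mtor at 0.20. Igf2 divided by the summed meningeal level, a ratio chosen after its values were seen, was 0.566, 0.554, 0.577 and 0.483 in mutants and 0.408, 0.421, 0.419 and 0.450 in wild type. The ratios did not overlap. Their relation to the choroid plexus level was not tested.

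**Figure D2:**
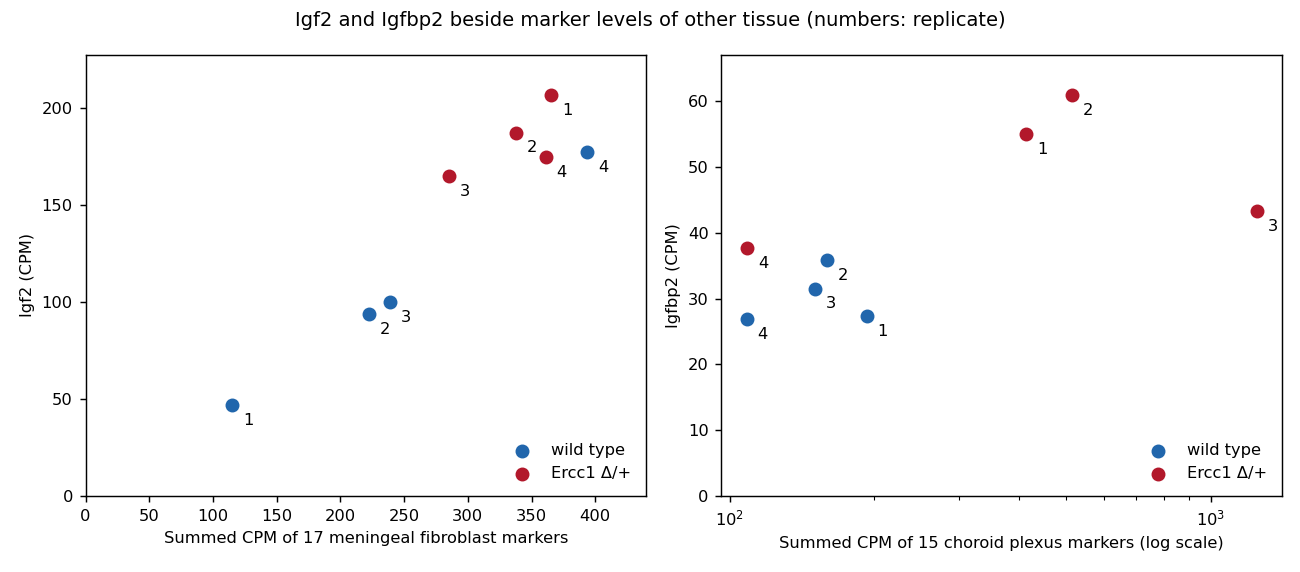
Igf2 against the summed CPM of 17 meningeal fibroblast markers (left) and Igfbp2 against the summed CPM of 15 choroid plexus markers (right, log x axis), a point per library with its replicate number. Wild type replicate 1 is lowest on both axes of the left panel. With the marker gene Ttr in the sum, mutant replicate 4 has about the plexus level of wild type replicate 4. Their Igfbp2 levels are 37.7 and 26.8 CPM.

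Choroid plexus markers differed more. Of the 15 listed, 14 were tested, and 14 lay above 0 on the log2 scale (median 1.80), 0 of them past the adjusted threshold. At an unadjusted p under 0.05, 10 of these markers were higher, where 9.08% of all genes were. For 4 of them every mutant library, replicate 4 included, lay above every wild type library, as for 5.17% of all genes. Their summed level was 414, 515, 1246 and 109 CPM in mutants and 193, 160, 151 and 109 CPM in wild type, and none was at 0 in any library. Ttr, the transthyretin gene that dominates plexus RNA, ran from 32.4 to 991 CPM in mutants and from 18.2 to 112 CPM in wild type. Without Ttr the summed level was 131, 105, 255 and 76.4 CPM in mutants and 81.1, 74.5, 68.1 and 90.4 CPM in wild type. Kl ran from 11.7 to 56.3 and from 9.56 to 11.4 CPM, and Folr1 from 0.777 to 10.8 and from 0.974 to 1.85 CPM.

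Mutant replicate 4, whose plexus level of 109 CPM was close to that of wild type replicate 4, held 37.7 CPM of Igfbp2, above the 35.9 CPM of the highest wild type library. Without Ttr the plexus level of mutant replicate 4 was 76.4 CPM, below the 90.4 CPM of wild type replicate 4. Single markers differed in direction between these libraries. Ttr was 32.4 CPM in mutant replicate 4 against 18.2 in wild type replicate 4, Kl 11.7 against 9.58 and Folr1 0.777 against 0.974. Which of the libraries held more plexus was therefore not settled. Mutant replicate 3, by far the richest in plexus markers, held 43.3 CPM of Igfbp2, less than mutant replicates 1 and 2. Over the 8 libraries, log2 CPM of Igfbp2 and the mean of the plexus markers had a Pearson r of 0.658 (exact permutation p = 0.0770, adjusted p = 0.355) and a Spearman rho of 0.690 (exact permutation p = 0.0694, adjusted p = 0.432). Without mutant replicates 1 and 3, the libraries farthest from the median plexus level, r was 0.831 over 6 libraries. For Mtor and the plexus markers r was 0.769 (exact permutation p = 0.0246, adjusted p = 0.164), and 0.609 without the same libraries. With the plexus markers as a covariate the log2 fold change of Igfbp2 was 0.58 (SE 0.21, edgeR adjusted p = 0.358) and that of Igf2 0.99 (SE 0.44, adjusted p = 0.441). Igfbp2 stood at 0.75 without mutant replicate 3 and at 0.58 without mutant replicate 2. Its lowest value in the 22 alternative settings was 0.56 (SE 0.16), with a term for depth. Of 13 vessel markers, 10 lay above 0 on the log2 scale (median 0.23), and 0 passed the adjusted threshold. At an unadjusted p under 0.05, 4 were higher and 0 lower, where 9.08% and 9.65% of all genes were. For 2 of these markers every mutant library lay above every wild type library, as for 5.17% of all genes. Their summed levels were between 336 and 433 CPM in mutants and between 310 and 374 CPM in wild type, with none at 0, and Cldn5, a tight junction gene of endothelium, held between 24.1 and 55.3 and between 37.2 and 43.8 CPM. Beyond these values, the part of other tissue in the ligand and binding protein levels was not tested.

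Transcript length was a further measure that moved with the receptors, adaptors and kinase, beside the marker levels given for Igf2r and Insr. Their 7 transcripts run from 4175 bases (Ghr) to 11409 bases (Igf1r), all longer than the median of 3003 bases over the genes with a known length. Log2 fold change and length had a Spearman coefficient of 0.395 over 14735 genes, given as a description since genes do not vary independently. The 4112 genes between 4175 and 11409 bases had a median of 0.09 on the log2 scale, with 70.2% above 0, beside a median of 0.21 and 6 of 7 for the receptor, adaptor and kinase genes. The median length of the 4112 genes was 5482.5 bases, against 8887 for the 7, so these sets are not matched in length.

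With an offset per library for the trend over length and GC content, the median of the 7 was 0.04, and 7 of 7 were positive. Mtor then stood at 0.02 (SE 0.05), Insr at 0.01, Igf2r at 0.04 and Irs1 at 0.04, all close to 0. Igf1r kept a value of 0.12 (SE 0.07, edgeR adjusted p = 0.533) and Irs2 of 0.20 (SE 0.08, adjusted p = 0.419). By contrast Igfbp2, with a transcript of 1307 bases, stood at 0.73 (SE 0.15, adjusted p = 0.199) and Igf2 at 0.70. Igf1 had a value of 0.21 (SE 0.16) under the offset, which used a length of 1673 bases; since its rows match transcripts of 651 to 7052 bases, this value depends on that choice. Whether length itself bears on these differences was not tested.

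**Figure D3:**
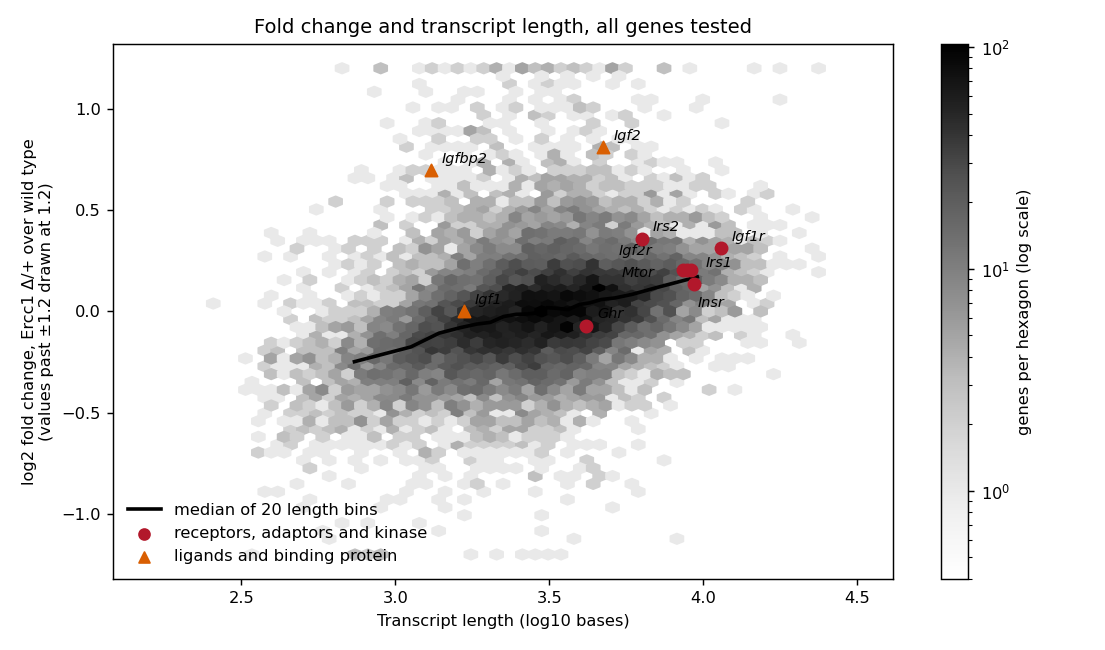
Log2 fold change of mutant over wild type (y axis) against transcript length (x axis, log10 bases) for all genes tested with a known length; shading counts genes and the line joins medians of 20 length bins. Insr lies close to the line for long transcripts, whereas Igf2 and Igfbp2 lie far above the line at their lengths.

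**Figure D4:**
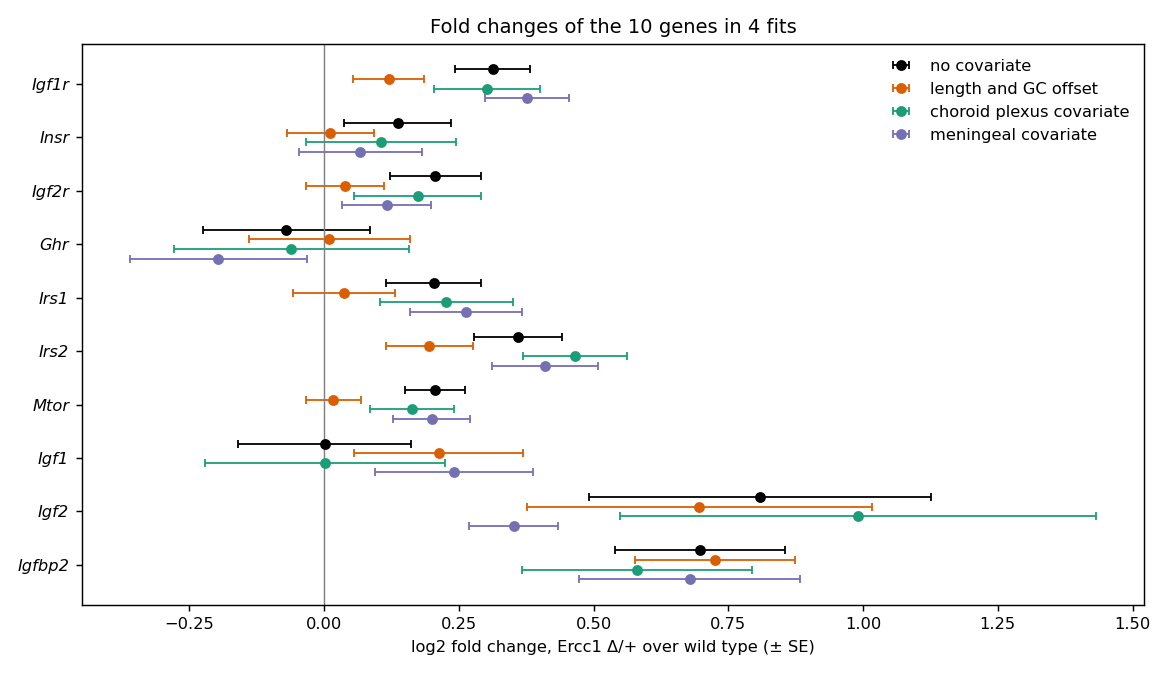
Log2 fold change ± SE of the 10 genes (rows) in 4 fits: without covariate, with the length and GC offset, and with choroid plexus or meningeal markers as a covariate. The long receptor and adaptor genes move toward 0 under the offset (Mtor from 0.21 to 0.02), and Igf2 moves from 0.81 to 0.35 under the meningeal covariate.

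The rest of the pathway was read from 4 fixed lists, of which 91 of 98 genes were in the table and tested; 0 passed the adjusted threshold. At an unadjusted p under 0.05, 18 of the 91 were higher, where 9.08% of all genes were, and 4 lower, where 9.65% were. Their median log2 fold change was 0.11. Ins1, Ins2, Gh, Igfbp1, Igfals, Irs3 and Ghrhr had no row and were not analysed here.

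Other ligand-side genes had a median of 0.28, with 11 of 12 positive. At an unadjusted p under 0.05, 5 were higher and 0 lower, where 9.08% and 9.65% of all genes were. Igfbp7, a binding protein gene of vessels, held between 18.8 and 21.1 CPM in mutants and between 16.0 and 16.3 CPM in wild type, a log2 fold change of 0.31 (SE 0.07, edgeR adjusted p = 0.0828). Igfbp3, whose product carries IGFs in blood, stood at 0.30 (SE 0.09), and Pappa2, which encodes a protease that cuts IGF binding proteins, at 1.02 (SE 0.34) from a low level of 2.18 CPM in wild type. Pappa2 stood at 0.60 (SE 0.35) with the meningeal covariate and at 0.64 (SE 0.30) with a term for depth. Igfbp5, with 263 ± 26.9 CPM in wild type (SD, n = 4), stood at -0.01, and its sign turned in 3 settings.

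Receptor-proximal genes had a median of 0.09, with 21 of 28 positive. At an unadjusted p under 0.05, 3 were higher and 0 lower, where 9.08% and 9.65% of all genes were. The count of higher genes is thus near the share over all genes. Cbl, a ubiquitin ligase gene for activated receptors, stood at 0.39 (SE 0.13), and Ptpn1, whose phosphatase switches off the insulin receptor, at 0.28 (SE 0.11). Sstr2, a somatostatin receptor gene, stood at 0.36. Under the length and GC offset Cbl stood at 0.23 and Ptpn1 at 0.18, and with the depth term Sstr2 stood at 0.23. On the other side were Socs1 (-0.38, SE 0.23), Grb14 (-0.18) and Grb10 (-0.15), which encode inhibitors of cytokine or insulin receptors, each with overlapping groups.

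Of the PI3K, AKT and FOXO genes 23 of 24 were positive, with a median of 0.14. At an unadjusted p under 0.05, 6 were higher and 0 lower, where 9.08% and 9.65% of all genes were. Inppl1, Inpp5d and Tbc1d4, the positive genes of smallest p in this list, had groups that did not overlap. Of all genes, 5.17% had groups apart in the higher direction. Inppl1 and Inpp5d encode SHIP phosphatases that remove the PI3K product; they stood at 0.27 (SE 0.06, edgeR adjusted p = 0.0828) and 0.39 (SE 0.10, adjusted p = 0.105). Tbc1d4, an AKT substrate that controls glucose transporter traffic, stood at 0.32 (SE 0.08). Under the length and GC offset Inppl1 stood at 0.14, Inpp5d at 0.29 and Tbc1d4 at 0.21; their transcripts are of 4995, 4937 and 6483 bases. Slc2a4, the insulin-responsive glucose transporter gene, was the 1 negative gene at -0.06, and its sign turned in 5 settings.

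The mTOR list split in direction, with 15 positive and 12 negative genes and a median of 0.04. At an unadjusted p under 0.05, 4 were higher and 4 lower, where 9.08% and 9.65% of all genes were. Its longer transcripts Tsc2 (6266 bases, an inhibitor of mTORC1) and Rptor (6594 bases, the scaffold of mTORC1) stood at 0.18 (SE 0.06) and 0.17 (SE 0.05). Eif4ebp2, a translation repressor that mTORC1 inactivates, has a transcript of 1422 bases, the shortest of the 6 genes named from this list, and stood at 0.31 (SE 0.08). Rheb, the small GTPase that activates mTORC1, held between 77.5 and 85.1 CPM in mutants and between 93.9 and 99.3 CPM in wild type, a log2 fold change of -0.25 (SE 0.06, edgeR adjusted p = 0.0797). The GTPase genes Rraga and Rragb, which bring mTORC1 to lysosomes, stood at -0.22 (SE 0.05) and -0.25 (SE 0.07), also with groups apart. Within this list groups were apart for 4 genes in the higher direction, among them Tsc2, Rptor and Eif4ebp2, and for 4 in the lower. Of all genes tested, 5.17% had groups apart in the higher direction and 1037 of 15074 in the lower direction. The transcripts of Rheb, Rraga and Rragb are of 1784, 1618 and 2258 bases, shorter than the median. Under the length and GC offset Tsc2 stood at 0.03, Rptor at -0.0036, Eif4ebp2 at 0.37, Rheb at -0.14, Rraga at -0.12 and Rragb at -0.13.

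**Figure D5:**
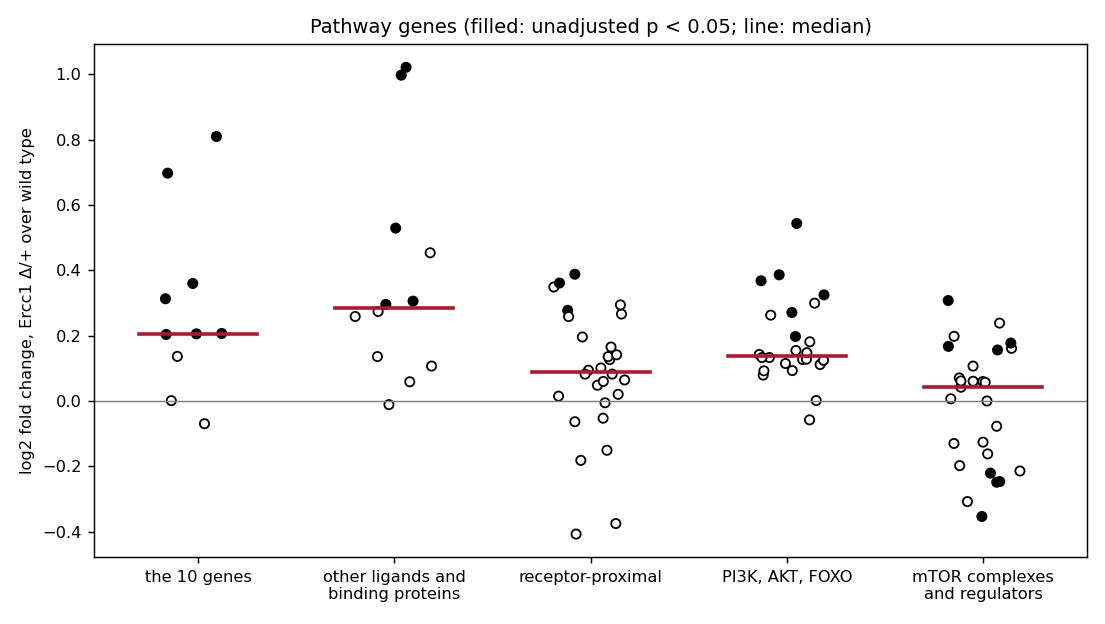
Log2 fold change of mutant over wild type for the 10 genes and for 4 lists of other pathway genes; each point is a gene, filled where the unadjusted p is under 0.05, and lines are medians. The ligand-side list has the highest median of the 4 lists (0.28), and the mTOR list has filled points on both sides of 0.

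The genes most like 4 of the members were sought among 14257 genes of at least 1 CPM. The measure was Pearson r of log2 CPM over the 8 libraries, as a description. Both genotypes were pooled, so r also takes in any difference between genotypes, and the genes found share depth and tissue with the member. For Igf2 they were Col1a1 (r = 0.991), Ogn (0.976), Serping1 (0.975) and Serpina1d (0.971). The first 3 of these are on the meningeal list, and Serpina1d had at most 2.04 CPM in any library. For Igfbp2 they were Map1a (0.980), Myo18a (0.980), Midn (0.980) and Pou6f1 (0.970), none of them on a plexus or meningeal list. Those lists hold only 15 and 17 genes of the table, so absence from them says nothing of the source of Igfbp2. For Igf1r they were Trio (0.984), Khsrp (0.976), Trpc4 (0.971) and Fgd1 (0.970), and for Igf1 they were Armc6 (0.962), Rtn4rl1 (0.951), Scand1 (0.944) and Raver2 (0.940).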

How the data were processed

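Poly(A) RNA of the ventral mesencephalic area was sequenced in 4 Ercc1 delta/+ and 4 wild type samples. The authors deposited raw counts per coding RefSeq transcript. Their table also holds their log2 fold change and p-values, per the file headers. Per the submitters' processing notes, TopHat 1.3.1, edgeR and the mm9 build were used; the counting tool, and whether it used strand, is not given in the sources used here. Names were matched for 19456 of 19931 rows (475 were not matched) through RefSeq GRCm38.p6 and GENCODE M21, and the row of highest total was kept per gene (2832 genes had several rows). Rows of 1 gene share reads, and 152 genes with identical counts to another gene were merged with it. The lowest row total was 31, so rarer transcripts are not in the table. No pair of replicates agreed within sampling noise (chi-square over degrees of freedom of at least 11.7). A count of 3 corresponds to between 0.0913 and 0.170 CPM over the libraries.

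All 15074 genes that passed edgeR's filterByExpr entered 1 fit with genotype as the only term (R 4.3.3, edgeR 4.0.16, TMM scaling, quasi-likelihood test, Benjamini-Hochberg adjustment over all genes, threshold 0.05). DESeq2 1.42.0, limma-voom (limma 3.58.1) and the edgeR exact test were alternatives. SE is that of the log2 fold change. CPM values carry no prior count; a prior count of 2 was used for log2 CPM in correlations. The length and GC offset was a lowess trend per library (span 0.3) over lengths from GENCODE M21 transcripts, known for 97.7% of genes. The fit was also tested on simulated data. Named genes are the 10 members, Ercc1, up to 3 genes per direction with the smallest p from each pathway list, the 4 genes most like Igf2, Igfbp2, Igf1 and Igf1r, and 7 markers of other tissue. The members and all lists were chosen with earlier results of these data known.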

Additional observations from a re-analysis of the deposited data

Results flagged for a closer look

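Ghr in wild type replicate 4 stood at 19.2 CPM, apart from the other 3 wild type libraries at 12.9 to 13.6 CPM. Its gap to the nearest library was 0.883 of the range of the group, above Dixon's 95% critical value for 4 samples. It was 1 of 76 groups checked over 38 genes, and chance sets apart about 5% of groups.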

How the results depend on the processing

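None of the 10 member genes was past the edgeR quasi-likelihood threshold, against 3 by the edgeR exact test and 4 by DESeq2, and 0 in the other 20 of 22 alternatives. The other pathway genes named kept their direction except Igfbp5 (0.023 with the plexus covariate; -0.074 to 0.047 with a replicate left out), Grb10 (0.019 with the depth term), Slc2a4 (0.12 with the depth term; -0.17 to 0.066 with a replicate left out) and Rptor (-0.0036 under the length and GC offset). Among members, Ghr turned to 0.0100 under the offset and 0.047 with the depth term (-0.13 to 0.084 over replicates left out). Igf1, at 0.00, turned to -0.019 with upper-quartile scaling, -0.0023 with the stricter filter, -0.0052 with every transcript row and -0.10 with the depth term (-0.11 to 0.15 over replicates left out). Counts over all genes depended on the test: 2 genes passed as higher, and 12 did with RLE scaling, 21 with upper-quartile scaling, 54 with the stricter filter, 241 by the exact test, 509 by DESeq2, 18 by limma-voom, 1 with every transcript row or the meningeal covariate, and 0 with the offset, the plexus covariate or the depth term. As lower, 5 passed, and 21, 56, 91, 315, 543, 34, 3, 1 (meningeal), 1 (offset), 0 (plexus) and 1 (depth term) did in those settings. With a replicate left out, 0 to 74 passed as higher and 0 to 236 as lower; the highest of both were without mutant replicate 2. The cause was not tested. With mutant replicate 3 and wild type replicate 1 both left out, a setting chosen after seeing the data, 0 and 0 passed, and Igf1r, Irs2, Mtor, Igf2 and Igfbp2 stood at 0.37, 0.46, 0.20, 0.61 and 0.71. With the replicate block, 0 genes passed as higher and 0 as lower. The shared numbers did not pair the samples: same-numbered libraries correlated between -0.27 and 0.26, and 1 mutant and 0 wild type libraries correlated best with their own number.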
